A study of Homo sapiens with 9 samples.

Results

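The genes described here encode the proteins of the cytosolic ribosome. They were taken by symbol, as RPL or RPS followed by a number, with the stalk genes RPLP0, RPLP1 and RPLP2 and with RPSA, and the rule found 85 of the 27800 symbols in the expression table. Of these, 46 were core large-subunit genes, 31 were core small-subunit genes and 8 were minor paralogues (RPL3L, RPL7L1, RPL10L, RPL22L1, RPL26L1, RPL36AL, RPL39L and RPS27L). Minor paralogues are relatives of a core gene by sequence and are called minor copies below. The data do not show whether each is built into ribosomes. A total of 83 members passed the filter on low values, and RPL3L and RPL10L did not, with at most 0.298 and 0.111 TPM in any library. Expression was measured by RNA sequencing in PANC-1, an established line from a human pancreatic tumour, at day 0, day 2 and day 14 of a culture short of nutrients and oxygen, with 3 libraries a day. The column headings of all 9 libraries begin with WT, the usual short form of wild type. The medium held 2.5 mM glucose, 0.5% serum and amino acids at 20% of the standard concentration, with no further treatment, and the oxygen level was not given. That medium is recorded for all 9 samples, day 0 included, so the labels leave the state of the day 0 culture unstated, and no undeprived cells were profiled at day 2 or day 14. Deprivation therefore cannot be told apart from time in culture or from a batch by day. Nothing says that replicates were separate cultures, so p-values measure only the spread between these samples.

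The cytosolic ribosome joins a large subunit, which forms peptide bonds and holds the exit tunnel, to a small subunit, which decodes the messenger RNA. Its proteins are needed in fixed proportions, and their genes are known for being expressed in concert. Their messenger RNAs belong to the 5′ terminal oligopyrimidine (TOP) class: they begin with a C followed by an uninterrupted run of C and T (U in the RNA), through which the protein LARP1 and the nutrient-sensing kinase complex mTORC1 control their translation. This control acts mainly on translation and messenger stability, and the present data hold messenger levels only.

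The annotated starts of members on which the results turn are shown because the TOP run defines the class. Each sequence holds 10 bases before and 20 bases from the annotated first base of the transcript (RefSeq, GRCh38.p14), is written 5′ to 3′ on the gene's own strand, and has in capitals the run of C and T that begins with C at the first base. RPL39, a protein of the exit tunnel, RPS18 and RPS27, both of the small subunit, and RPL22L1, the second copy of RPL22, are the members that were called higher at day 14 than at day 0 and at day 2 under each of 6 scalings once day 0 replicate 2 was left out. RPL22 is shown beside its copy, and RPS27L beside RPS27. RPS26, which sits where the messenger RNA leaves the ribosome, and RPL14 were the core members called lower at day 2 in that setting.
RPL39: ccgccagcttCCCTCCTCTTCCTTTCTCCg
RPS18: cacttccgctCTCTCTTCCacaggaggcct
RPS27: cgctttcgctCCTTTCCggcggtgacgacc
RPS27L: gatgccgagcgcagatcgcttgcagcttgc
RPL22L1: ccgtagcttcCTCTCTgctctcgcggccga
RPL22: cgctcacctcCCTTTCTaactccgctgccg
RPS26: acataacctcgattttcttccgccatccgg
RPL14: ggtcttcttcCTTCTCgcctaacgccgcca
The sequences lie at chrX:119791611-119791640 on the minus strand for RPL39, chr6:33272065-33272094 on the plus strand for RPS18 and chr1:153990752-153990781 on the plus strand for RPS27. Those of the minor copies lie at chr15:63157458-63157487 on the minus strand for RPS27L and chr3:170870176-170870205 on the minus strand for RPL22L1. The others lie at chr1:6199576-6199605 on the minus strand for RPL22, chr12:56041908-56041937 on the plus strand for RPS26 and chr3:40457329-40457358 on the plus strand for RPL14. The run was 19 bases in RPL39, 9 in RPS18, 7 in RPS27, 7 in RPL22 and 6 each in RPL22L1 and RPL14, and RPS27L and RPS26 had no C at the annotated first base.

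Levels are in TPM, a unit of relative transcript abundance in which the estimated reads of a gene are divided by its transcript length and each library is scaled to the same sum. TPM are shares, so the rise of abundant genes lowers all others, and sequencing depth is unknown. In these bulk samples fewer cells and less RNA per cell cannot be told apart. Of the 7 epithelial and tumour line markers checked (KRT7, KRT8, KRT18, KRT19, EPCAM, CDH1 and VIM), all 7 reached 1 TPM, with a summed level of 5564 to 5955 TPM at day 0, 2698 to 3013 TPM at day 2 and 2064 to 2405 TPM at day 14. The acinar, islet and hepatocyte markers summed to at most 0.414 TPM in any library, and of the fibroblast and blood markers 1 each reached 1 TPM, COL1A1 and CD68.

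Day 0 replicate 2 stood apart. Members took 10.2%, 23.8% and 10.4% of all TPM in the day 0 libraries, 10.7%, 12.6% and 10.9% at day 2 and 14.9%, 12.6% and 13.4% at day 14. The share in day 0 replicate 2 was thus above that of every other library, and without it the day 14 libraries were all above the day 0 libraries. Over the 83 tested members, the level in day 0 replicate 2 exceeded the mean of replicates 1 and 3 by a median of 1.17 on the log2(TPM + 1) scale, with 78 members higher and 49 of them by more than 1 log2 unit. For the 977 other genes with a mean of at least 100 TPM that median was -0.06, with 175 of them higher by more than 1 log2 unit, and for all 14061 tested genes that are no members it was -0.58. In that library 11363 genes reached 1 TPM, and 13016 to 13868 did so in each of the 8 others. It correlated less across genes with its replicates (Pearson's r of 0.870 and 0.875, against 0.972 between replicates 1 and 3). Transcripts with a median length of 500 to 1000 bases had a median difference of -0.45 when they were no members, against 1.11 for the 77 members of that length. The part of RNA quality, culture or library preparation in this was not tested. Counts and named changes below are therefore given with all 9 libraries and without that library.

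The excess in day 0 replicate 2 was uneven among members. RPS29, a zinc-finger protein of the small-subunit head, had 453, 2721 and 441 TPM at day 0, a difference of 2.60 log2 units between replicate 2 and the mean of the others. RPS27A, made as a fusion with ubiquitin, had 861, 4108 and 808 TPM at day 0 (2.30), and RPL37A, another zinc-finger protein, had 1832, 8238 and 1887 TPM (2.15). At the other end 5 members were lower in replicate 2, among them RPL7L1 (-0.45), RPL29 (-0.39), RPL12 (-0.11) and RPL15 (-0.11). RACK1, a ribosomal protein that the symbol rule leaves out, also had less there (-0.40), whereas FAU, which encodes the small-subunit protein eS30 as a fusion, had more (1.30).

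**Figure D1:**
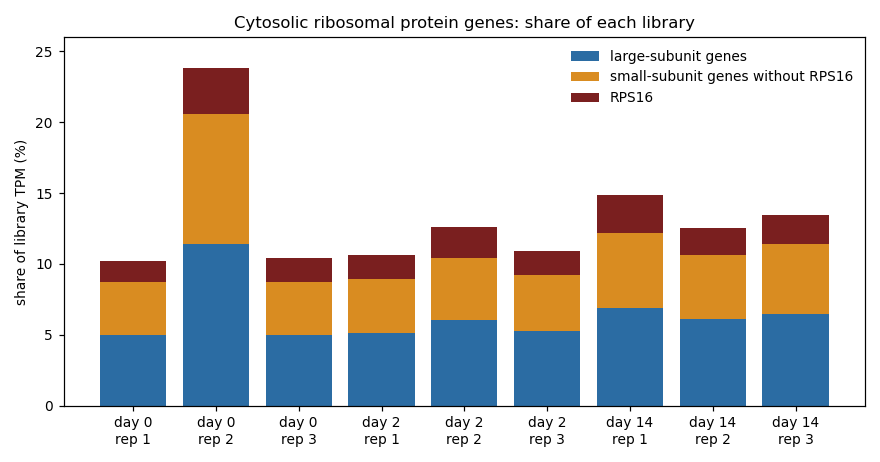
Share of all TPM (%) taken by ribosomal protein genes in each of the 9 libraries, stacked as large-subunit genes, small-subunit genes without RPS16, and RPS16; each bar is 1 library. Day 0 replicate 2 reaches 23.8%, and the 8 other libraries lie between 10.2% and 14.9%.

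The levels of the members differed far more from one another than between days. RPS16, a protein of the small-subunit head, had 14991, 32994 and 16942 TPM at day 0, 17392, 22019 and 17472 TPM at day 2 and 27107, 18934 and 20610.3 TPM at day 14. It held 1.499% to 3.30% of all TPM by itself and 13.8% to 18.2% of the members' TPM, and averaged 3.92 times the next member, the stalk gene RPLP1. The stalk gene RPLP2 and the small-subunit gene RPS12 followed, with means over the 9 libraries of 3546 and 3341 TPM. At the low end RPS23, a protein of the decoding centre, had 110.4, 295 and 112 TPM at day 0, 104, 126 and 110.2 TPM at day 2 and 175, 129.8 and 139 TPM at day 14. RPL37, a zinc-finger protein of the large subunit, averaged 189 TPM, and both were far below the median of the core members, which was 1295 TPM. TPM divides by transcript length. The longest annotated transcript is 3437 bases for RPS23 and 7686 bases for RPL37, against medians over transcripts of 716 and 529 bases (GENCODE, GRCh38). Longest transcripts of 3647, 7062 and 7072 bases are annotated for RPL37A, RPS29 and RPL14, which are not among the 2 core members averaging under 200 TPM. Which transcripts were used for the deposited values is not given in the sources used here, and the part of length in this order was not tested. The spread among members hardly varied: the SD of their log2 levels was 1.59 to 1.68 in the 8 other libraries and 1.75 in day 0 replicate 2. Large-subunit genes together had 1.32 to 1.36 times the TPM of small-subunit genes without RPS16 in the 8 other libraries, and 1.25 times in day 0 replicate 2, and the ranges of the 3 days overlapped.

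Ribosomal protein genes were counted as changed when limma gave an adjusted p under 0.05 over all 14144 genes tested. At day 14 against day 0, with all 9 libraries, 2 of the 83 members were called higher and 0 lower, where 27.5% of all tested genes were called higher and 6.72% lower. Of these RPL15, a large-subunit protein known as a gene mutated in Diamond-Blackfan anaemia, had 345, 315 and 334 TPM at day 0, 448, 492 and 451 TPM at day 2 and 503, 453 and 474 TPM at day 14, and its log2 change was 0.52 ± 0.14 (adjusted p = 0.0233) with 9 libraries and 0.49 ± 0.10 (adjusted p = 0.00472) without day 0 replicate 2. Its day 14 libraries were all above those of day 0. RPL15 is among the 5 members that were lower in day 0 replicate 2. The median change of the 83 members was 0.01, against 0.44 over all tested genes. An unadjusted p under 0.05 was found for 7 members, and for 6609 of all 14144 tested genes. Leaving out day 14 replicate 1 or replicate 3 left 0 members called higher, where 18.7% and 18.6% of all genes were. Leaving out day 0 replicate 3 or day 14 replicate 2 left 1, where 28.3% and 18.2% of all genes were.

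Without day 0 replicate 2, the same comparison gave 45 members higher and 1 lower at day 14, where 34.5% of all tested genes were called higher and 14.6% lower. The median change of the members was 0.38, against 0.24 over all genes. Of the 46 core large-subunit genes 27 rose and 1 fell, of the 31 core small-subunit genes 15 rose and 0 fell, and the called changes upward ran from 0.29 to 1.21. Among the minor copies RPL7L1, RPL22L1 and RPS27L rose. The split between higher and lower moved with the scaling, with more members higher than lower in each of the 6. After median-ratio scaling, which centres the libraries on the typical gene, 16 members were higher and 15 lower, where 22.2% and 27.8% of all genes were. After quantile normalization the counts were 34 and 11 (24.3% and 23% of all genes). Centred on the members' own median they were 16 and 11 (20.2% and 26.4%), and with a trend on transcript length removed 28 and 8 (24.9% in either direction). With TPM taken over the non-member genes they were 49 and 0 (36.4% and 12.7%).

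**Figure D2:**
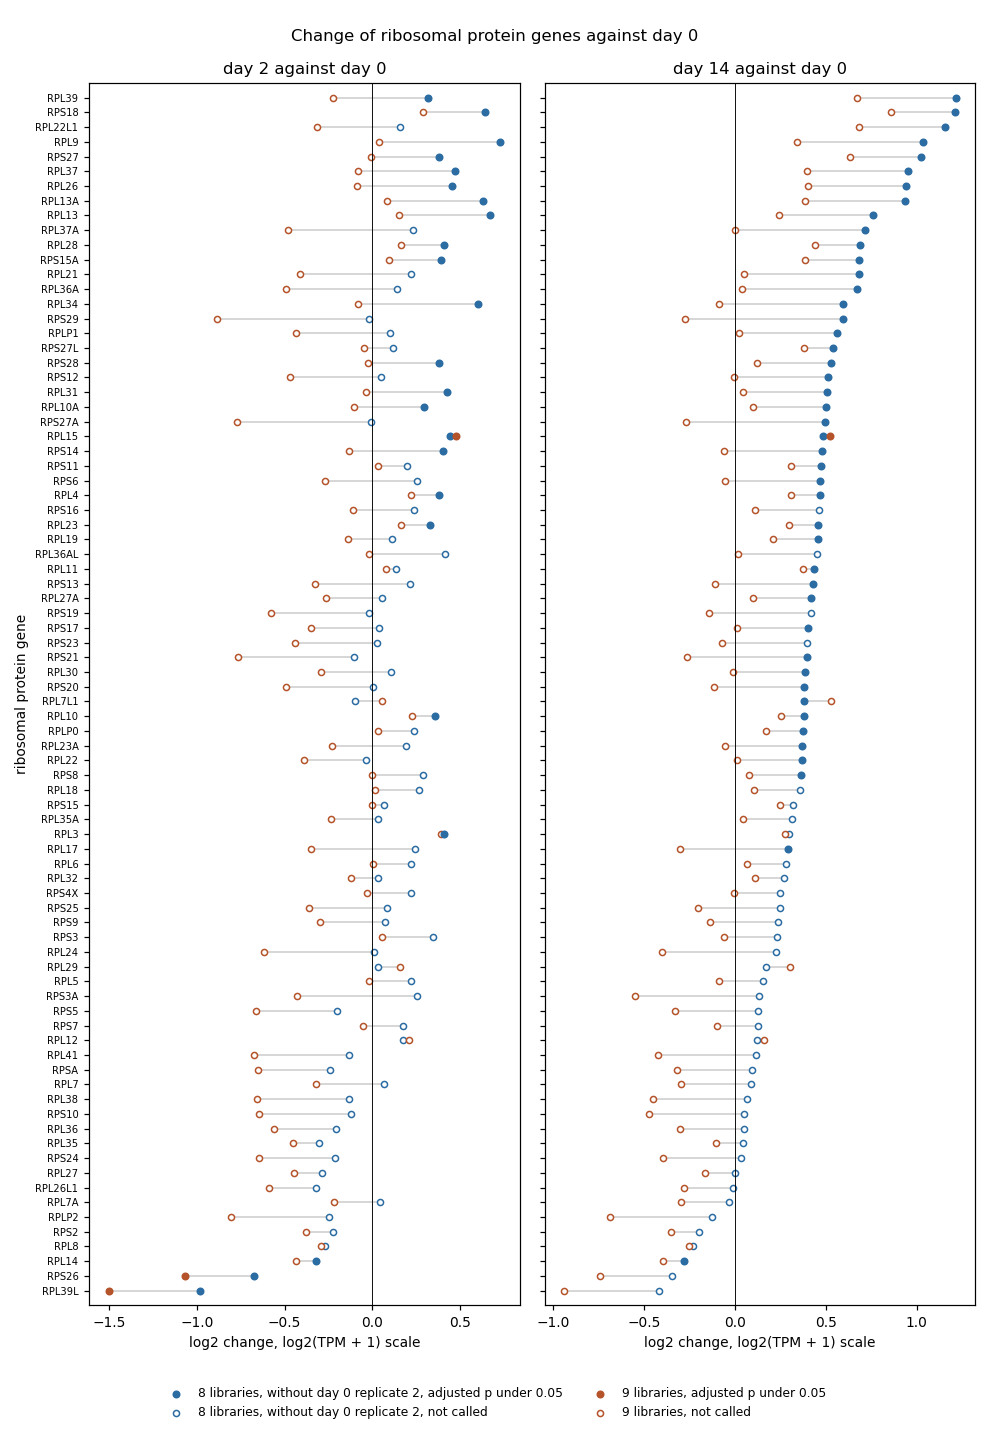
Log2 change of ribosomal protein genes on the log2(TPM + 1) scale, day 2 against day 0 on the left and day 14 against day 0 on the right; orange points are the fit of 9 libraries, blue points the fit without day 0 replicate 2, and filled points have an adjusted p under 0.05. Nearly all blue points lie right of their orange partners, RPL15 being among the few that do not, and at day 14 RPL39 and RPS18 lead with 1.21.

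Called higher at day 14 than at day 0 in all 6 scalings without day 0 replicate 2 were 16 members, and 0 were called lower in all 6, where 19.2% and 13.2% of the 13492 genes tested in all 6 were. The share of members called higher was thus close to that of all genes. Among them were RPL9, RPL13, RPL13A, RPL21, RPL22L1, RPL26, RPL28, RPL34, RPL36A, RPL37, RPL37A and RPL39 of the large subunit and RPS15A, RPS18 and RPS27 of the small subunit. RPL39, a small basic protein lining the exit tunnel, had 1689, 4961 and 1542 TPM at day 0, 1936, 1960.1 and 2153 TPM at day 2 and 4031, 3417 and 3816 TPM at day 14. Its log2 change at day 14 against day 0 was 1.21 ± 0.11 (adjusted p = 0.000226) without day 0 replicate 2 (0.88 to 1.27 over the scalings) and 0.67 ± 0.40 (adjusted p = 0.216) with it. The day 14 libraries lay above replicates 1 and 3 of day 0 and below replicate 2.

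RPS18, a protein of the small-subunit head at the bridge to the large subunit, had 1539, 3231 and 1553 TPM at day 0, 2240.3, 2706 and 2331 TPM at day 2 and 3757, 3363 and 3636 TPM at day 14. Its day 14 libraries lay above all 3 day 0 libraries. The change of RPS18 was 1.21 ± 0.11 (adjusted p = 0.000239) without day 0 replicate 2 and 0.86 ± 0.29 (adjusted p = 0.0502) with it. RPS27, a zinc-finger protein that also binds the p53 regulator MDM2, had 1401, 2975 and 1248 TPM at day 0, 1620.2, 1803 and 1762 TPM at day 2 and 2737, 2512 and 2822 TPM at day 14, and its change was 1.02 ± 0.11 (adjusted p = 0.000346) without day 0 replicate 2 and 0.63 ± 0.31 (adjusted p = 0.140) with it. RPL9, which lies near the base of the stalk, had 506, 2131 and 498 TPM at day 0, 777, 898 and 833 TPM at day 2 and 1045, 1031 and 1012 TPM at day 14, a change of 1.03 ± 0.09 (adjusted p = 0.000226) and 0.34 ± 0.50 (adjusted p = 0.612) in the same order. Their day 14 libraries lay above replicates 1 and 3 of day 0 and below replicate 2.

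RPL26, known for binding the messenger RNA of p53, had 776, 2392 and 779 TPM at day 0, 1022, 1136 and 1048 TPM at day 2 and 1634, 1346 and 1512 TPM at day 14, with a change at day 14 of 0.40 ± 0.40 (adjusted p = 0.455) with 9 libraries and 0.94 ± 0.11 (adjusted p = 0.000571) without day 0 replicate 2. RPL13A, known for its role in the interferon-gamma-controlled silencing of translation, had 721, 2301 and 749 TPM at day 0, 1065, 1391 and 1007 TPM at day 2 and 1634, 1236 and 1383 TPM at day 14, with a change of 0.39 ± 0.42 (adjusted p = 0.489) with 9 libraries and 0.94 ± 0.17 (adjusted p = 0.00355) without day 0 replicate 2. RPL37 changed by 0.40 ± 0.41 (adjusted p = 0.465) with 9 libraries and 0.95 ± 0.13 (adjusted p = 0.00102) without day 0 replicate 2. RPL13 changed by 0.24 ± 0.39 (adjusted p = 0.646) with 9 libraries and 0.76 ± 0.13 (adjusted p = 0.00276) without day 0 replicate 2. None of these 4 was called with 9 libraries. Of the other members called in all 6 scalings, RPL21, RPL28, RPL34, RPL36A, RPL37A and RPS15A had changes between 0.60 and 0.72 without day 0 replicate 2. With 9 libraries none of them was called, and their changes were 0.05, 0.44, -0.09, 0.04, -0.00058 and 0.38 in that order. Copies may bear on some of these values, which was not tested. Of the 31-base words in the transcripts of RPS27, RPS18, RPL13A and RPL39, 70.8%, 56.3%, 47.8% and 47.7% also occur in transcripts of other annotated genes. The shares found in other genes with deposited values were 0%, 12.7%, 42.2% and 31.5% in that order. Processed pseudogenes are numerous in this family, and the authors' quantification could split reads between them.

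**Figure D3:**
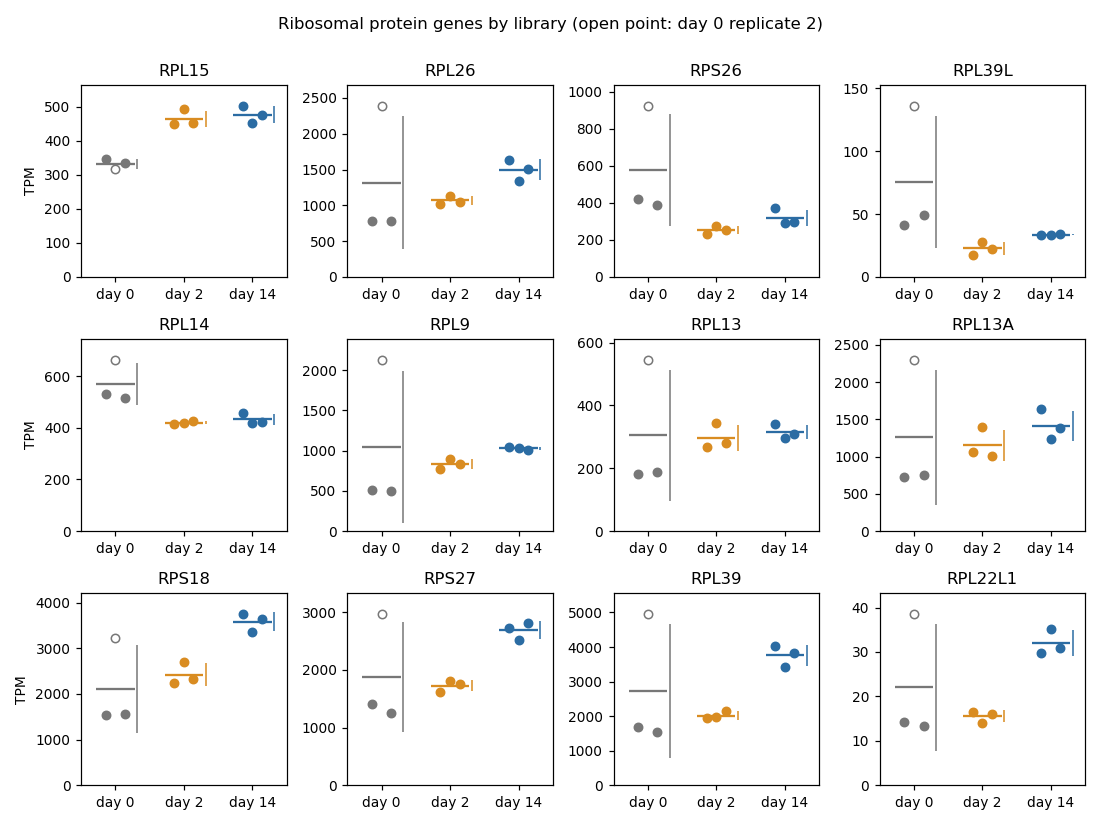
TPM of 12 ribosomal protein genes in each library by day; points are libraries (open for day 0 replicate 2), horizontal lines the mean and vertical lines the SD of 3 libraries, with axes from 0. The open point is the highest of all in most panels, while in RPL15 it sits at the bottom.

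RPL14 was the 1 member that fell at day 14 without day 0 replicate 2. This large-subunit protein had 532, 663 and 516 TPM at day 0, 413, 419.6 and 426 TPM at day 2 and 456, 417 and 422 TPM at day 14, with all later libraries below all day 0 libraries. Its change at day 14 against day 0 was -0.28 ± 0.09 (adjusted p = 0.0320) without day 0 replicate 2 and -0.39 ± 0.16 (adjusted p = 0.0847) with it. RPS26 changed by -0.34 ± 0.14 (adjusted p = 0.0738) and RPL39L by -0.42 ± 0.18 (adjusted p = 0.0957) in the same fit, and neither passed. With 9 libraries they changed by -0.74 ± 0.32 (adjusted p = 0.0995) and -0.94 ± 0.40 (adjusted p = 0.102). Without overlap between the days, counting all 9 libraries, 7 members were higher at day 14 (among them RPL3, RPL7L1, RPL11, RPL15, RPL29 and RPS18) and 6 lower (RPL8, RPL14, RPL39L, RPLP2, RPS2 and RPS26), where 42.5% and 9.95% of all genes were. Leaving out day 0 replicate 2 gave 65 higher and 6 lower, where 47.5% and 21.8% of all genes were.

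At day 2 against day 0, with all 9 libraries, 1 member was higher and 2 were lower, where 19.2% of all tested genes were called higher and 11.5% lower. RPL15 changed by 0.48 ± 0.14 (adjusted p = 0.0336) with 9 libraries and 0.45 ± 0.10 (adjusted p = 0.00674) without day 0 replicate 2. RPS26 had 421, 925 and 386 TPM at day 0, 231, 274 and 254 TPM at day 2 and 371, 290.4 and 297 TPM at day 14, with every day 2 library below every day 0 library, and its change was -1.07 ± 0.32 (adjusted p = 0.0332). RPL39L, the second copy of RPL39 that is best known from testis and some tumour lines, had 41.3, 136 and 49.7 TPM at day 0, 17.7, 28.2 and 22.5 TPM at day 2 and 33.4, 33.8 and 33.9 TPM at day 14, likewise without overlap, and its change was -1.505 ± 0.40 (adjusted p = 0.0232). The members' median was -0.23, against 0.23 over all genes. An unadjusted p under 0.05 was found for 8 members, and for 6121 of all 14144 tested genes. The call of RPL15 was lost without either of day 0 replicates 1 and 3, any day 2 library or day 14 replicate 2 or 3. In the fits without day 2 replicate 1 or replicate 3, 0 members were lower, where 6.68% and 6.79% of all genes were.

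Without day 0 replicate 2, 20 members were higher and 3 lower at day 2, where 24.5% and 23.7% of all genes were. The share of members called higher was close to that of all genes. The median was 0.14, against 0.02 over all genes. Of the core genes 15 of 46 in the large subunit and 5 of 31 in the small subunit rose, and 1 in each fell, RPL14 and RPS26. RPL9 changed by 0.73 ± 0.09 (adjusted p = 0.000805), RPL13 by 0.67 ± 0.13 (adjusted p = 0.00463), RPS18 by 0.64 ± 0.11 (adjusted p = 0.00290) and RPL34 by 0.60 ± 0.09 (adjusted p = 0.00167). With 9 libraries the changes of these 4 were 0.04, 0.15, 0.29 and -0.08, with adjusted p of at least 0.470. The members called higher in all 6 scalings were 10, where 18.6% of all genes were: these 4 with RPL3 and RPL4, which reach toward the peptidyl transferase centre and the exit tunnel, and RPL13A, RPL15, RPL26 and RPL37. RPL39L, RPS26 and RPL14 were called lower in all 6, where 22.1% of all genes were, with changes of -0.98 ± 0.18 (adjusted p = 0.00379), -0.67 ± 0.14 (adjusted p = 0.00580) and -0.32 ± 0.09 (adjusted p = 0.0193). With 9 libraries RPL14 changed by -0.43 ± 0.16 (adjusted p = 0.0681) and was not called. The scalings moved the split again. It was 22 higher and 14 lower after median-ratio scaling (23.4% and 29.4% of all genes) and 15 and 19 after quantile normalization (24.9% and 25.3%). Centred on the members' median it was 16 and 15 (19.8% and 30.3%), and with the length trend removed 28 and 9 (25.4% and 27%). With TPM over the non-member genes it was 19 and 3 (24.7% and 22.4%). RPS26 shares 34.7% and RPL39L 22.6% of its 31-base words with other annotated genes (21.8% and 16.5% with other genes that have deposited values).

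At day 14 against day 2, the fit of 9 libraries called 0 members higher and 0 lower, where 0.212% and 0.205% of all genes were called. An unadjusted p under 0.05 was found for 2 members, and for 2558 of all 14144 tested genes. The median change was 0.25, against 0.24 over all genes. Without day 0 replicate 2, which enters this comparison only through the estimate of spread, 21 members were higher and 0 lower, where 23.4% and 3.82% of all genes were. A fit of the day 2 and day 14 libraries alone called 12 higher and 0 lower, where 15.1% and 2.69% were. Called higher in all 6 scalings were 4 and lower 0, where 5.91% and 3.21% of all genes were. These were RPL22L1, with 0.998 ± 0.11 (adjusted p = 0.00572), RPL39, with 0.89 ± 0.10 (adjusted p = 0.00586), RPS27, with 0.64 ± 0.09 (adjusted p = 0.00835), and RPS18, with 0.57 ± 0.10 (adjusted p = 0.0117). With 9 libraries the changes are the same by construction, and the adjusted p were 0.198, 0.286, 0.318 and 0.346. In each of the 4, all day 14 libraries lay above all day 2 libraries. The split again moved. It was 4 higher and 5 lower after median-ratio scaling (6.02% and 6.71% of all genes), 27 and 0 after quantile normalization (7.56% and 6.87%) and 8 and 1 when centred on the members' median (8.56% and 4.72%). With the length trend removed it was 4 and 4 (7.27% and 6.9%), and with TPM over the non-member genes 24 and 0 (25.5% and 3.56%). The libraries of the 2 days did not overlap in 39 members higher at day 14 and in 1 lower, RPS3A, where 36.8% and 7% of all genes were separate. The F test over the 3 days called 3 of the 83 members (35.4% of all genes) and 47 without day 0 replicate 2 (62%).

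The stalk proteins, which recruit translation factors, and the members that bind MDM2 were read as groups. With 9 libraries 0 of 3 stalk genes were called in any comparison. Of all genes, 19.2% were then called higher and 11.5% lower at day 2 against day 0. At day 14 against day 0 these shares were 27.5% and 6.72%, and at day 14 against day 2 they were 0.212% and 0.205%. RPLP2 had 3019.6, 9761 and 3051 TPM at day 0, 2397, 2874 and 2436 TPM at day 2 and 2917, 2579 and 2879 TPM at day 14. Without day 0 replicate 2, where 34.5% of all genes were called higher, RPLP0 and RPLP1 rose at day 14, by 0.38 ± 0.12 (adjusted p = 0.0324) and 0.56 ± 0.11 (adjusted p = 0.00408), and RPLP2 changed by -0.12 ± 0.12 (adjusted p = 0.410). With 9 libraries the changes were 0.17, 0.03 and -0.68, with adjusted p of 0.562, 0.966 and 0.226. Over the 6 scalings RPLP0 was called higher in 2, RPLP1 higher in 4 and RPLP2 lower in 4, and none of them changed sign at day 14. Of the 10 members known to bind MDM2, 0 were called with 9 libraries, to be read against the same shares of all genes. Without day 0 replicate 2 there were 4 higher at day 2 (RPL23, RPL26, RPS14 and RPS27), where 24.5% of all genes were. At day 14 there were 6, RPL11 and RPS27L in addition, where 34.5% of all genes and 45 of all 83 members were called higher. Of the 6, RPL26 and RPS27 were called in all scalings. The median change of the 10 at day 14 was 0.45, against 0.38 for all 83 members and 0.24 over all genes. RPL5, which joins RPL11 and the 5S RNA in a particle outside the ribosome, had 434, 729.9 and 448 TPM at day 0, 486, 561 and 499.8 TPM at day 2 and 479, 504 and 488 TPM at day 14, and its change at day 14 was -0.09 ± 0.22 (adjusted p = 0.771) with 9 libraries and 0.15 ± 0.10 (adjusted p = 0.228) without day 0 replicate 2. FAU and RACK1 were not called against day 0 in either fit.

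Minor copies together made up 0.344% to 0.395% of the members' TPM in every library. RPL39L stood at 2.44, 2.75 and 3.22 TPM per 100 TPM of RPL39 at day 0, 0.916, 1.44 and 1.05 at day 2 and 0.830, 0.988 and 0.887 at day 14. This ratio separated the later days from day 0 with day 0 replicate 2 inside the range of its group. The exact permutation test on the log2 ratio gave p = 0.1 for day 2 and for day 14 against day 0, the smallest p that 3 against 3 libraries allow, and 0.257 after Benjamini-Hochberg adjustment over 18 tests. The mean ratio was 1.13 ± 0.27 at day 2 and 0.902 ± 0.080 at day 14, against 2.80 ± 0.39 at day 0 (SD, n = 3 each).

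RPL22L1 per 100 RPL22 went the other way. The ratio was 8.17, 10.5 and 7.59 at day 0, 10.2, 7.66 and 9.54 at day 2 and 11.4, 17.9 and 13.7 at day 14, and each day 14 library lay above all others (exact permutation p = 0.1 against day 0 and against day 2, 0.257 adjusted). RPL22L1 itself had 14.3, 38.6 and 13.3 TPM at day 0, 16.5, 13.9 and 16.05 TPM at day 2 and 29.8, 35.2 and 30.8 TPM at day 14, and changed at day 14 against day 0 by 1.16 ± 0.12 (adjusted p = 0.000356) without day 0 replicate 2 and 0.68 ± 0.36 (adjusted p = 0.167) with it. RPL7L1 per 100 RPL7 was 5.23, 1.71 and 5.31 at day 0, 4.57, 4.92 and 4.61 at day 2 and 7.28, 6.34 and 5.87 at day 14, likewise highest at day 14 (exact permutation p = 0.1 against each earlier day, 0.257 adjusted). RPL26L1 per 100 RPL26 was 7.02, 4.04 and 7.10 at day 0, 3.93, 3.86 and 4.56 at day 2 and 3.58, 4.10 and 3.30 at day 14, where day 0 replicate 2 fell among the later libraries and away from its own group. RPL36AL per 100 RPL36A was lower in each day 14 library than in each day 2 library, and RPS27L per 100 RPS27 overlapped between all days. Of the 31-base words of RPL26L1 and RPL36AL, 45.2% and 30.2% occur in other annotated genes. Counting only other genes with deposited values, the shares were 1.94% and 4.61%. By that count RPL22, RPL7 and RPS27 had 0%, so they share no such word with their minor copies. RPL39 and RPL39L had 31.5% and 16.5% by the same count, and the part of shared sequence in their ratio was not tested.

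**Figure D4:**
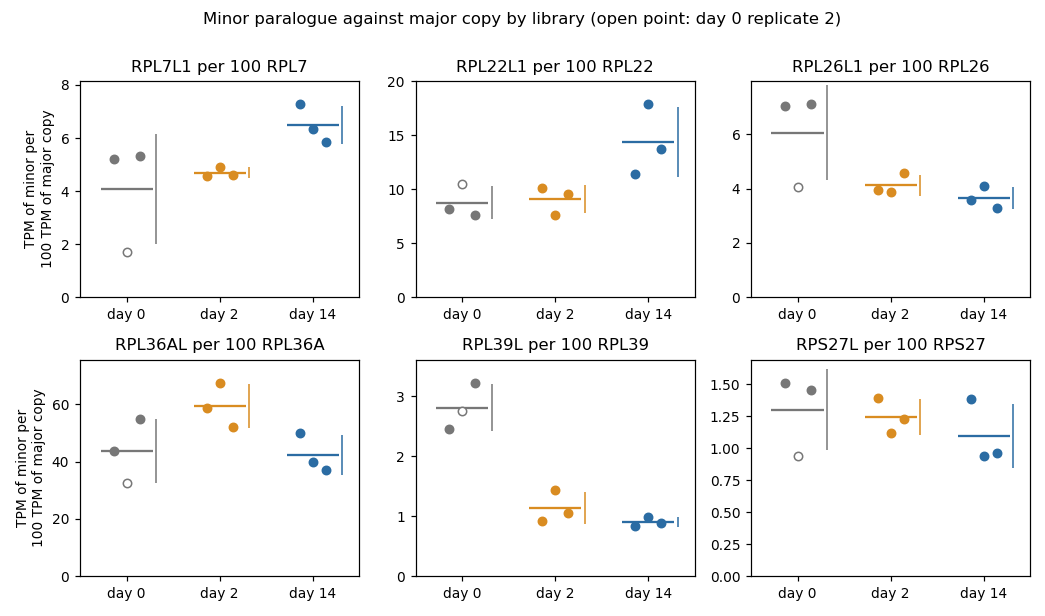
TPM of 6 minor copies per 100 TPM of the major copy, by library and day; points are libraries (open for day 0 replicate 2), horizontal lines the mean and vertical lines the SD of 3 libraries. RPL39L per 100 RPL39 is 2.44 to 3.22 at day 0 and at most 1.44 later, and RPL22L1 per 100 RPL22 is highest at day 14.

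The starts bear a TOP run in most members but not in most minor copies. Of the 85 members 68 matched a row in the table of annotated starts. A run was counted when the annotated first base was C and at least 4 further bases were C or T on the transcript strand, at any annotated start of the gene. It was found in 47 of the 68 (69.1%), against 1357 of 27237 other genes (4.98%), and in 46 of 62 core members (74.2%) against 1 of 6 minor copies, RPL22L1. Of the 13 matched members among the 16 that were higher at day 14 in all scalings, 12 had the run, RPL9 being without it, against 35 of the 55 other matched members. RPL22L1 is among the 13, and the other matched minor copies, all without the run, are among the 55. That comparison thus also holds the difference between core members and minor copies. RPL14, which fell, has a run of 6 bases, and RPS26 has none at the annotated base. Absence says only that these letters are not at the annotated base.

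Genes that act with the ribosomal proteins were counted in the same fits. The shares of all tested genes to read them against are, with 9 libraries, 19.2% higher and 11.5% lower at day 2 and 27.5% and 6.72% at day 14. The shares without day 0 replicate 2 are 24.5% and 23.7% at day 2 and 34.5% and 14.6% at day 14.

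Mitochondrial ribosomal proteins, which build the separate ribosome of the organelle, gave 36 of 80 lower (45%) and 3 higher (3.75%) at day 2, and 19 lower (23.8%) and 7 higher (8.75%) at day 14. Their median changes were -0.74 and -0.40, against 0.23 and 0.44 over all genes. On the 8 other libraries the list had 41 lower (51.2%) and 4 higher (5%) at day 2, and 24 lower (30%) and 15 higher (18.8%) at day 14. The share lower was thus above that of all genes and the share higher below it in both fits. MRPL15 changed at day 2 by -2.06 ± 0.28 (adjusted p = 0.00119) with 9 libraries and -1.77 ± 0.18 (adjusted p = 0.000320) without day 0 replicate 2, and MRPL12 by -2.03 ± 0.35 (adjusted p = 0.00358) with 9 libraries and -1.64 ± 0.23 (adjusted p = 0.00120) without day 0 replicate 2. Of the 81 symbols in that list 3 are pseudogene symbols, of which MRPL45P2 and MRPS31P5 rose at both days in both fits. Over the 6 scalings of the 9 libraries, the list gave 13 to 40 lower and 1 to 3 higher at day 2, and 9 to 34 lower and 1 to 7 higher at day 14, with the fewest lower when centred on the members' median.

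A list of 20 genes held chaperones and importers of ribosomal proteins and other genes, NMD3, RRP7A, NCLN, ANKRD26 and ARMC5 among the latter. Of these 20 genes 9 were lower (45%) and 0 higher at day 2, and 5 lower (25%) and 2 higher (10%) at day 14. The fit without day 0 replicate 2 gave 12 lower (60%) and 1 higher, and 9 lower (45%) and 2 higher. The number called moved with the scaling: centred on the members' median 1 was lower at day 2 and 0 at day 14, and after median-ratio scaling 12 and 8 were. GRWD1, which escorts RPL3, had 52.03, 27.5 and 59.9 TPM at day 0, 14.2, 17.3 and 12.6 TPM at day 2 and 25.3, 21.1 and 17.4 TPM at day 14. Its change at day 2 was -1.54 ± 0.30 (adjusted p = 0.00609) with 9 libraries and -1.87 ± 0.19 (adjusted p = 0.000285) without day 0 replicate 2. PDCD2L, related to the RPS2 chaperone PDCD2, changed at day 2 by -1.43 ± 0.37 (adjusted p = 0.0208) with 9 libraries and -1.04 ± 0.29 (adjusted p = 0.0194) without day 0 replicate 2. The exporter adaptor NMD3 changed at day 14 by 0.68 ± 0.19 (adjusted p = 0.0270) with 9 libraries and 0.54 ± 0.15 (adjusted p = 0.0188) without day 0 replicate 2. The importer TNPO1 changed at day 14 by 0.97 ± 0.32 (adjusted p = 0.0428) with 9 libraries and 0.57 ± 0.12 (adjusted p = 0.00585) without day 0 replicate 2.

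Other TOP messages gave 5 of 28 higher (17.9%) and 2 lower (7.14%) at day 2, and 6 higher (21.4%) and 3 lower (10.7%) at day 14. With day 0 replicate 2 left out there were 10 higher (35.7%) and 4 lower (14.3%) at either day. In that fit the shares at day 14 were near those of all genes. GAS5, a noncoding host of small nucleolar RNAs, had 165, 404 and 168 TPM at day 0, 515, 648 and 490.4 TPM at day 2 and 1155, 861 and 843 TPM at day 14. Its change at day 14 was 2.07 ± 0.34 (adjusted p = 0.00314) with 9 libraries and 2.49 ± 0.18 (adjusted p = 9.79e-05) without day 0 replicate 2. SNHG1, a host of the same kind, changed at day 14 by 1.71 ± 0.16 (adjusted p = 0.000362) with 9 libraries and 1.74 ± 0.13 (adjusted p = 0.000129) without day 0 replicate 2. EIF4B, an initiation factor, changed at day 2 by 1.31 ± 0.26 (adjusted p = 0.00611) with 9 libraries and 1.03 ± 0.16 (adjusted p = 0.00158) without day 0 replicate 2. The elongation factor subunit EEF1D changed at day 14 by -1.12 ± 0.23 (adjusted p = 0.00722) with 9 libraries and -0.87 ± 0.12 (adjusted p = 0.000920) without day 0 replicate 2.

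Regulators of TOP messages gave 4 of 20 higher (20%) at day 2, 5 higher (25%) at day 14 and 0 lower. Leaving out day 0 replicate 2 gave 6 higher (30%) and 3 lower (15%) at day 2, and 6 higher (30%) and 1 lower (5%) at day 14. The shares higher were near those of all genes. RPS6KA2, a kinase that can phosphorylate RPS6, changed at day 14 by 2.11 ± 0.39 (adjusted p = 0.00480) with 9 libraries and 1.58 ± 0.11 (adjusted p = 9.60e-05) without day 0 replicate 2. LARP1B, a relative of LARP1, changed at day 14 by 1.32 ± 0.25 (adjusted p = 0.00504) with 9 libraries and 1.08 ± 0.17 (adjusted p = 0.00164) without day 0 replicate 2. LARP1 itself changed at day 14 by 0.90 ± 0.50 (adjusted p = 0.185) with 9 libraries and 0.21 ± 0.15 (adjusted p = 0.262) without day 0 replicate 2, and MTOR by 0.99 ± 0.68 (adjusted p = 0.278) with 9 libraries and 0.03 ± 0.15 (adjusted p = 0.897) without day 0 replicate 2.

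Ribosome-bound and nascent-chain chaperones gave 1 of 14 higher (7.14%) and 4 lower (28.6%) at day 2, and 1 higher and 2 lower (14.3%) at day 14. The fit without day 0 replicate 2 gave 1 higher and 6 lower (42.9%), and 3 higher and 3 lower (21.4% each). HSPA8 changed at day 2 by -1.90 ± 0.21 (adjusted p = 0.000554) with 9 libraries and -2.01 ± 0.19 (adjusted p = 0.000233) without day 0 replicate 2, and HSPA14 by -1.24 ± 0.17 (adjusted p = 0.00149) with 9 libraries and -1.13 ± 0.11 (adjusted p = 0.000265) without day 0 replicate 2. SRP14 of the signal recognition particle changed at day 14 by 0.48 ± 0.16 (adjusted p = 0.0463) with 9 libraries and 0.54 ± 0.13 (adjusted p = 0.0109) without day 0 replicate 2.

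Rescue and quality-control factors gave 4 of 23 higher and 4 lower at day 2 (17.4% each), and 6 higher (26.1%) and 2 lower (8.7%) at day 14. With day 0 replicate 2 left out there were 4 higher (17.4%) and 9 lower (39.1%), and 7 higher (30.4%) and 3 lower (13%). At day 14 these shares were near those of all genes. ANKZF1, which releases stalled chains, had 5.12, 4.15 and 4.97 TPM at day 0, 27.3, 37.1 and 25.4 TPM at day 2 and 24.6, 21.1 and 22.8 TPM at day 14. Its change at day 2 was 2.41 ± 0.19 (adjusted p = 0.000168) with 9 libraries and 2.34 ± 0.17 (adjusted p = 8.25e-05) without day 0 replicate 2. IFRD2, which occupies inactive ribosomes, had 108, 108 and 110.3 TPM at day 0, 20.96, 24.6 and 21.6 TPM at day 2 and a mean of 47.5 ± 10.7 TPM (SD, n = 3) at day 14. Its change at day 2 was -2.23 ± 0.19 (adjusted p = 0.000194) with 9 libraries and -2.24 ± 0.17 (adjusted p = 0.000113) without day 0 replicate 2.

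Another list held 17 elongation and termination factors and related genes, EEF1E1, EEF2K, DPH1 and DPH2 among the latter. It also held TSFM, an elongation factor of mitochondria. Of these 17 genes 1 was higher (5.88%) and 3 lower (17.6%) at day 2, and 1 higher and 2 lower (11.8%) at day 14. Leaving out day 0 replicate 2 gave 2 higher (11.8%) and 6 lower (35.3%), and 3 higher (17.6%) and 5 lower (29.4%). EEF1E1 changed at day 2 by -1.10 ± 0.27 (adjusted p = 0.0151) with 9 libraries and -0.80 ± 0.14 (adjusted p = 0.00260) without day 0 replicate 2. Scaling moved the smaller lists too: the median change of all genes at day 14 was -0.04 after median-ratio scaling and 0.52 when centred on the members' median, against 0.44 in TPM as deposited. After median-ratio scaling the rescue factors gave 3 higher and 5 lower at day 14, the regulators of TOP messages 2 and 2, and the other TOP messages 3 and 4.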

How the data were processed

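PANC-1 cells were profiled in 9 libraries, 3 each at day 0, day 2 and day 14. TPM for each gene symbol come from 1 table that the authors deposited. The submitters' processing notes name Salmon and the build hg19, and neither a Salmon version nor the transcripts, strand setting or read filters used are given in the sources used here. TPM sum to the same total in each library and keep no depth, so no counting interval is given. Columns were matched to samples by day and replicate number, and no pair of libraries shared most of their nonzero values.

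Values were analysed as log2(TPM + 1), on which fold changes of low genes are understated. The filter kept 14144 genes that reached 1 TPM in 3 or more of the 9 libraries. These were tested with limma 3.58.1 (R 4.3.3). A single model held all libraries, with an intensity trend. Tests were two-sided, and p-values were adjusted by Benjamini-Hochberg over the kept genes in each comparison, at 0.05. Changes are log2 with their standard error. Every count was repeated without day 0 replicate 2. The 6 scalings without it are TPM as deposited, median-ratio, quantile, TPM over non-member genes, centring on the members' median and removal of a trend on transcript length (lengths for 95.4% of tested genes). The last 5 combinations, and leaving RPS16 out of the total, were chosen after seeing the data. The other alternatives were pseudocounts, filters, limma settings, a replicate block, fits of the 2 days compared, and each library left out.

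The members, the other gene lists and the named genes were chosen with earlier results of these data known, so no list is independent evidence and no list was tested as a set. Named genes are the called members (results of some genes in these lists are not reported here), the paralogue pairs, the extremes of the mean level, and up to 2 rises and 2 falls per list; the lead genes of the scalings and of the plot of levels, and LARP1, MTOR and the stalk and MDM2-binding genes given without a call, were picked after values were seen. The fits were tested on simulated data with known changes. Shared sequence and lengths came from GENCODE transcripts and starts from RefSeq, both GRCh38, a build other than that of the deposited values; no coordinates were converted. Figures were drawn with matplotlib 3.10.9.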

Additional observations from a re-analysis of the deposited data

How the results depend on the processing

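Which members are called depends on day 0 replicate 2 and on the scaling, and depth is unknown. Counts below are members called higher and lower at day 2 against day 0, at day 14 against day 0 and at day 14 against day 2, where the fit of 9 libraries gave 1 and 2, 2 and 0, and 0 and 0. With array weights, which gave day 0 replicate 2 a weight of 0.038, they were 25 and 13, 52 and 3, and 31 and 0, where 30.5% and 33.0%, 40.1% and 19.7%, and 31.2% and 4.56% of all genes were called. Median-ratio scaling gave 0 and 1, 0 and 1, and 0 and 0, with a median change at day 14 against day 0 of -0.59. In that setting 17.8% and 19.9%, and 15.5% and 17.9%, of all genes were called against day 0. Quantile normalization gave 3 and 12, 9 and 4, and 3 and 0 (18.3% and 19.9%, 17.1% and 17.4%, and 0.848% and 1.56% of all genes). TPM over non-member genes left 0 higher at day 2, where 20.0% of all genes were. Removal of the length trend gave 0 higher at day 2 (19.1% of all genes), and 0 higher and 1 lower at day 14 (17.6% and 17.1%). With no filter 1 was lower at day 2 (6.46% of all genes) and 1 higher at day 14 (17.9%). Fits of only the 2 days compared gave 0 and 0, 0 and 0, and 12 and 0 (13.6% and 8.34%, 16.6% and 4.09%, and 15.1% and 2.69% of all genes). Deviations from the day mean correlated by -0.079 to 0.015 between libraries of the same replicate number, and not every library correlated best with its own number. With 3 libraries a day such deviations sum to 0, so this check cannot show whether the numbers pair the libraries. The replicate block gave 0 and 1, 1 and 0, and 0 and 0 (14.6% and 8.67%, and 21.5% and 5.18%, of all genes against day 0). Leaving out 1 library gave 0 to 20 higher and 0 to 3 lower at day 2, 0 to 45 higher and 0 to 1 lower at day 14, and 0 to 21 higher at day 14 against day 2. Of all genes, 11.8% to 24.5% were then higher and 6.68% to 23.7% lower at day 2. At day 14 against day 0, 18.2% to 34.5% were higher and 4.44% to 14.6% lower. At day 14 against day 2, 0% to 23.4% were higher.
With day 0 replicate 2 left out as well, median-ratio scaling gave 22 and 14, 16 and 15, and 4 and 5. Quantile normalization gave 15 and 19, 34 and 11, and 27 and 0. TPM over non-member genes gave 19 and 3, 49 and 0, and 24 and 0. Centring gave 16 and 15, 16 and 11, and 8 and 1, and the length trend 28 and 9, 28 and 8, and 4 and 4. The shares of all genes called in these fits are given above with each comparison. The median with TPM over non-member genes was 0.16 at day 2 and 0.44 at day 14 against day 0. The cause of these differences was not tested.
Of the 83 members, 20 at day 2 and 37 at day 14 took the other sign after median-ratio scaling than in the fit of 9 libraries, and 12 and 31 with the length trend removed. Such changes are given here only for members called in that fit or in all 6 scalings and for named genes of the other lists, and of these only those of RPL15 and SRP14 at day 14 had been called. Median-ratio scaling at day 14 gave RPL13 -0.36, RPL13A -0.22, RPL15 -0.082, RPL21 -0.56, RPL26 -0.20, RPL28 -0.16, RPL36A -0.57, RPL37 -0.20, RPL9 -0.26, RPS15A -0.22 and SRP14 -0.12. At day 2 it gave RPL13 -0.19, RPL13A -0.26, RPL4 -0.13, RPL9 -0.31 and RPS18 -0.059. Removal of the length trend gave RPL13 -0.10, RPL21 -0.32, RPL26 -0.021, RPL36A -0.36, RPL37 -0.038, RPL9 -0.024 and RPS15A -0.014 at day 14. It gave RPL13A -0.0027 and RPL9 -0.10 at day 2. TPM over non-member genes gave RPL9 -0.023 at day 2. At day 2, RPL26, RPL34 and RPL37 were 0.018, 0.093 and 0.22 with quantile normalization, 0.17, 0.18 and 0.18 when centred, and 0.42, 0.57 and 0.45 with array weights. With day 0 replicate 2 also left out they were 0.38, 0.53 and 0.40 (median-ratio), 0.29, 0.55 and 0.64 (quantile), 0.47, 0.62 and 0.49 (non-member TPM), 0.34, 0.49 and 0.36 (centred) and 0.40, 0.55 and 0.41 (length trend). At day 14, RPL34 and RPL37A were 0.0048 and 0.10 with quantile normalization and 0.58 and 0.70 with array weights. RPL37A was 0.076 when centred and 0.00023 with RPS16 left out of the total. With day 0 replicate 2 also left out they were 0.26 and 0.38 (median-ratio), 0.46 and 0.41 (quantile), 0.65 and 0.77 (non-member TPM), 0.30 and 0.42 (centred) and 0.32 and 0.50 (length trend). Leaving out 1 library moved the change over a range of -0.026 to 0.76 for RPL13, -0.30 to 0.68 for RPL21, -0.44 to 0.60 for RPL34, -0.33 to 0.67 for RPL36A, -0.37 to 0.72 for RPL37A and -0.013 to 1.03 for RPL9 at day 14. At day 2 the range was -0.11 to 0.67 for RPL13, -0.20 to 0.64 for RPL13A, -0.35 to 0.46 for RPL26, -0.43 to 0.60 for RPL34, -0.37 to 0.48 for RPL37 and -0.32 to 0.73 for RPL9.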
